A study of Homo sapiens with 30 samples.

Results

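The 6646 sites described here lie in messages of cytosolic ribosomal proteins and make up part of the 382978 adenosine positions of a study of off-target A-to-G editing in HEK 293T, an established line derived from human embryonic kidney. Members were the listed sites in exons of protein-coding genes of GENCODE 29 (GRCh38) whose symbol begins with RPL or RPS and a digit, together with RPSA and RPLP0 to RPLP2. Kinases of the RPS6K family and read-through genes were left out. The rule took 88 genes, of which 84 held at least 1 listed site, among 9248 genes with a listed exonic site. Of the members, 6217 sites lay in exons of 1 gene and 429 in exons of more than 1, and 98.7% were adenosine on the strand of the ribosomal protein gene, while 87 read T there. The symbols RPL7L1 and RPS19BP1 meet the rule but name no subunit of the ribosome, and they contributed 294 sites. RPL10L, RPL3L, RPS4Y1 and RPS4Y2 held no listed site.

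All samples came from this line, and poly(A) RNA was taken 60 h after transfection. In 16 libraries the deaminase domain (DD) of ADAR2 or ADAR1 was fused to MCP, the MS2 coat protein, carrying a signal for nuclear import (NLS) or for nuclear export (NES). Each fusion existed with a glutamate-to-glutamine change (E488Q in ADAR2, E1008Q in ADAR1, called E-to-Q here) and as wild type, and was expressed either together with the MS2 adRNA guide or alone. A further 4 libraries had full-length ADAR2 (E488Q) or ADAR2, with their GluR2 adRNA guide present or absent. The last 2 had Cas13b-ADAR2 DD (E488Q), its Cas13b gRNA likewise present or absent. Controls were the MS2 adRNA, the GluR2 adRNA and the Cas13b gRNA alone, GFP, and 3 sequencing runs of 1 untransfected library. Every transfected condition had 1 library, so a single condition has no replicate error, and an SD below is taken over constructs, or over pairs that differ in 1 feature. The tables give shares of reads with G and adjusted p-values without read counts, so the depth behind a share is unknown and no counting interval is given. Amounts of the constructs and expression levels were not measured here, and the cell type could not be checked against marker genes.

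Cytosolic ribosomes are built from a small and a large subunit, each a scaffold of ribosomal RNA covered by many small, mostly basic proteins. Their messages are short, abundant in growing cells and carry a pyrimidine-rich start that ties their translation to growth signals. Adenosine deaminases that act on RNA turn adenosine into inosine, which is read as G, so an edited codon can specify another amino acid. Several ribosomal protein genes also have many processed pseudogenes, intronless copies left in the genome by reverse transcription of the message.

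The following windows show the edited adenosines on which the results turn, read 5′ to 3′ from GENCODE 29 transcripts (GRCh38) on the strand of the gene. Capitals mark the edited adenosine with the base on either side. The first 5 are among the sites with the largest rise over untransfected cells, and the rest are coding sites that differed between constructs.
RPL10A exon of a noncoding transcript, chr 6, position 35469137, plus strand: gtgctagggTAGttcagaccc
RPS23 3′ UTR, chr 5, position 82275681, minus strand: agattatctTAGgtacccttg
RPS9 3′ UTR, chr 19, position 54206723, plus strand: gcagctggaCAGgtaacagct
RPSA V288V, chr 3, position 39412344, plus strand: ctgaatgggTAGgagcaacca
RPS29 K54E, chr 14, position 49585952, minus strand: cggtttcatTAAgttggacta
RPLP0 Y199C, chr 12, position 120198609, minus strand: ggcagcatcTACaaccctgaa
RPS27A E64G, chr 2, position 55234832, plus strand: attcaaaagGAGtctactctt
RPS23 N92S, chr 5, position 82276408, minus strand: ggttgcttgAACtttattgag
RPL27 K22R, chr 17, position 42998815, plus strand: tccggacgcAAAgctgtcatc
RPS2 K145E, chr 16, position 1962852, minus strand: taagtgctcCAAggaggtggc
RPS4X K211K, chr X, position 72273289, minus strand: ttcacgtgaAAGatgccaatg
RPSA stop codon, first adenosine, chr 3, position 39412367, plus strand: gactggtctTAAgctgttctt
RPSA stop codon, second adenosine, chr 3, position 39412368, plus strand: actggtcttAAGctgttcttg
The first 4 have G after the edited base, as do 48.1% of the listed ribosomal protein sites that are adenosine on the gene's strand, and 3 of these 4 have U before it.

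Ribosomal protein messages were densely covered with listed sites, and most of those sites carried little editing. Of the 11955 coding adenosines in the 84 genes, 41.9% were listed, against 6.07% of the coding adenosines of other genes with a listed coding site. The median gene had 40.3 listed sites per 100 coding adenosines, against 4.71 over the 8486 other genes. The rise of a site is its share minus the mean of the untransfected runs, in percentage points, averaged over the 22 deaminase libraries. Its median was 0.535 points over ribosomal protein sites (quartiles 0.197 and 1.98), against 2.6 points over all listed sites (1.25 and 5.15). A rise of at least 10 points was reached by 299 ribosomal protein sites, 4.5%, against 8.63% of all sites, and 25.0% of ribosomal protein sites, against 64.4% of all, reached a share of 10% in any deaminase library. Whether density and level here move with the read depth of abundant messages was not tested, since the tables hold no depth.

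The level was lowest in coding sequence. The 5079 coding sites, 76.4% of the members, had a median rise of 0.359 points, against 2.41 points at coding sites of other genes. In 5′ UTRs the median was 1.39 points over 300 sites, against 2.86 points in other genes. In 3′ UTRs it was 2.61 points over 1120 sites, close to the 3.12 points of other genes, and in exons of noncoding transcripts 4.19 points over 147 sites, against 3.59 points. The medians of other genes rest on adenosine sites in exons of 1 gene. Those of members also include sites in exons of more than 1 gene and sites that read T. Of the 3′ UTR sites with a distance to the stop codon, 184 sites in the first 100 nt after the stop codon had a median of 0.868 points, and 874 sites further on had 3.09 points. Those further sites came from 22 genes with an annotated transcript whose 3′ UTR runs that far, among them RPL7L1 with 167 sites, RPL28 with 108, RPL37 with 107 and RPS23 with 83. Coding sequence held 37.6% of the adenosines of the 84 transcripts and 3′ UTRs 53.2%, so on these transcripts coding positions were listed more often than their number alone gives. This depends on the 1 transcript chosen per gene, and some are long, such as RPL37 with 7686 nt and RPL14 with 7072 nt. Which transcripts the cells express was not tested. These medians describe sites selected by their calls, and no test was made of them.

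**Figure D1:**
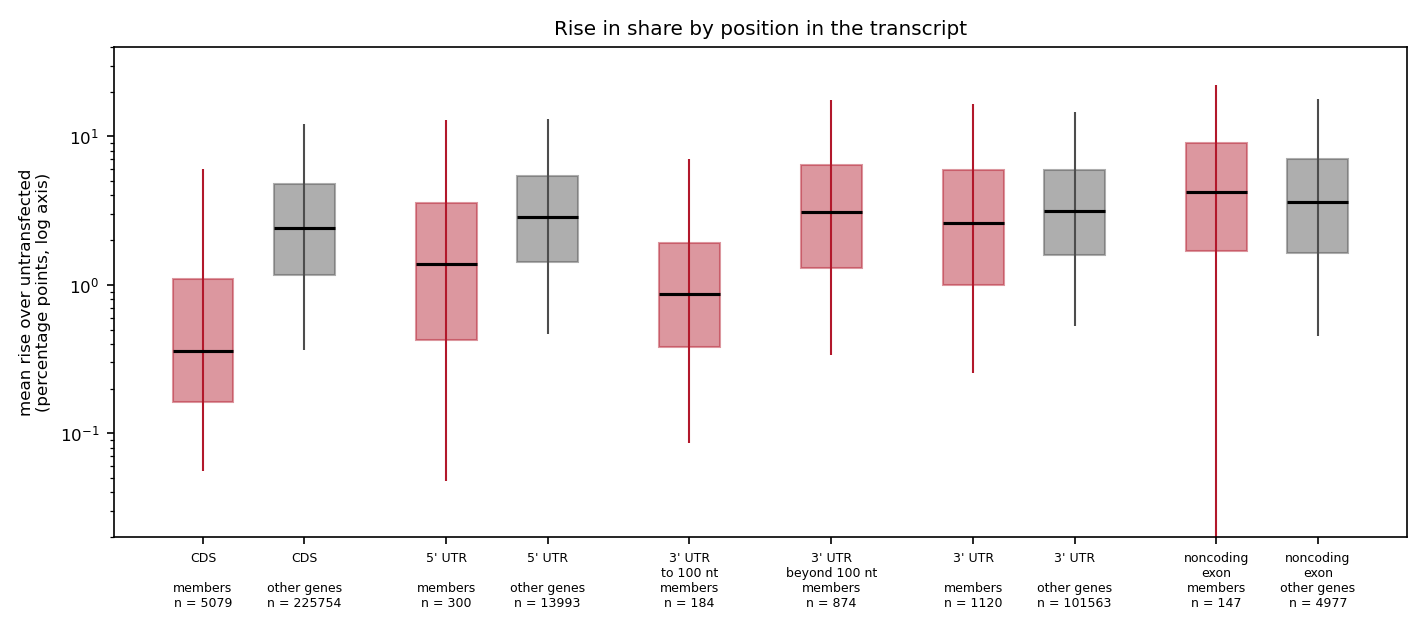
Mean rise of listed sites over the untransfected runs in percentage points (log axis, mean over 22 deaminase libraries) by position in the transcript, for ribosomal protein genes (red) and other genes (grey). Boxes span the quartiles, black bars are medians and lines run from the 5th to the 95th percentile, with the lower end for ribosomal protein noncoding exons below the axis. Coding sites of ribosomal protein genes sit lowest with a median of 0.359, while their 3′ UTR sites beyond 100 nt of the stop codon have a median of 3.09.

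A call in a library needed the authors' adjusted p to be under 0.01, with a share that exceeded the mean of the untransfected runs. Members were called more often than the listed sites as a whole in 22 of 22 deaminase libraries. MCP-ADAR1 DD (E1008Q)-NES had 66.4% of members called against 51.1% of all sites with MS2 adRNA, and 72.4% against 59.2% without it, the highest percentage. The other MCP-ADAR1 DD (E1008Q) fusion, with NLS, had 46.6% against 28.9% of all sites with guide and 40.9% against 23.5% without. Wild-type MCP-ADAR1 DD-NES had 46.6% against 26.4% with guide and 50.3% against 30.3% without, and MCP-ADAR1 DD-NLS 22.7% against 7.45% with guide and 20.2% against 5.35% without.

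In MCP fusions of the ADAR2 domain the percentages were lower than in the matching ADAR1 fusions, and members again stood above all sites. MCP-ADAR2 DD (E488Q)-NES called 28.5% of members against 11.2% of all sites with guide and 22.8% against 9.21% without. MCP-ADAR2 DD (E488Q)-NLS called 23.0% against 9.94% with guide and 16.8% against 7.32% without. For MCP-ADAR2 DD-NES it was 15.8% against 5.29% with guide and 8.4% against 2.48% without, and for MCP-ADAR2 DD-NLS 5.27% against 1.24% with guide and 6.86% against 0.982% without. Full-length ADAR2 (E488Q) called 36.9% of members against 32.7% of all sites with its GluR2 adRNA and 10.2% against 6.72% without. Full-length ADAR2 called 8.16% against 4.85% with guide and 3.39% against 1.5% without, the smallest percentage of members. The Cas13b fusion called 26.3% against 12.9% with its gRNA and 41.0% against 29.5% without.

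The levels at called sites went the other way. The median share of called members was between 1.31% and 9.82% over the 22 libraries (median 1.92%), against 5.62% to 15.8% over all called sites (median 10.0%), and it was lower in 22 of 22 libraries. Where a call also had to stand 5 points above the untransfected mean, members were called more often than all sites in 4 of 22 libraries. No member was called in GFP, against 0.00157% of all sites, or in the 3 untransfected runs, against at most 0.00104%. A single member, RPS18 Q97R (chr 6, position 33276065), was called in the MS2 adRNA library at 0.683% and in the GluR2 adRNA library at 0.573%, and it was 1 of 5 members called in the Cas13b gRNA library. Its untransfected mean was 0.507%, close to these values. Members were called more often than all sites in these guide libraries too. The percentages were 0.015% against 0.00366% with MS2 adRNA, 0.015% against 0.0047% with GluR2 adRNA, and 0.0752% against 0.00601% with Cas13b gRNA. The untransfected mean exceeded 2% at 123 members, 1.85%, against 0.502% of all sites.

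**Figure D2:**
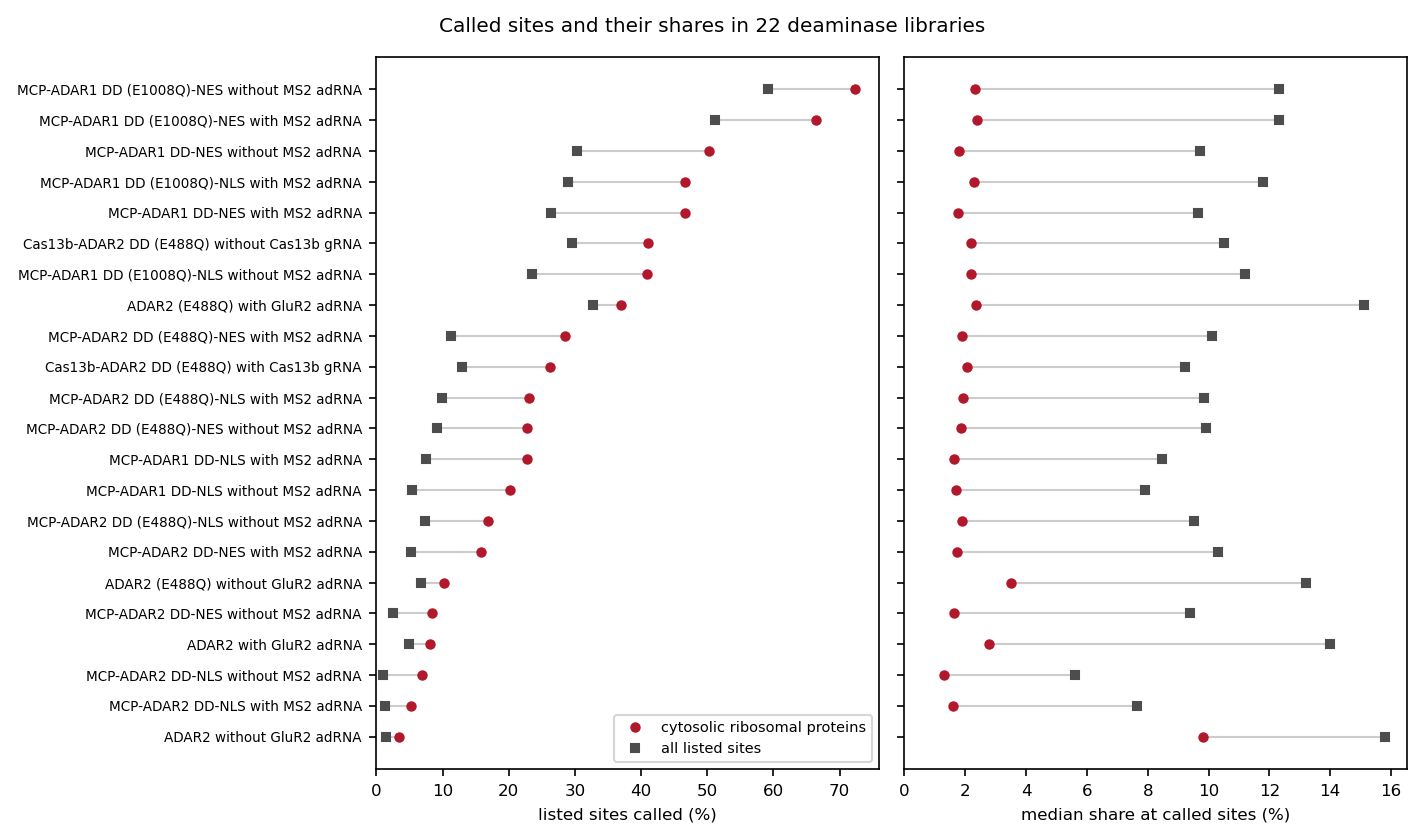
Percentage of listed sites called (left) and median share in percent at called sites (right) in each of the 22 deaminase libraries, for ribosomal protein sites (red circles) and all listed sites (grey squares), ordered by the percentage of members called. Members lie to the right of all sites on the left, up to 72.4% against 59.2%, and to the left of them on the right, with medians between 1.31% and 9.82%.

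Repeated calls were more common among members too. In at least 11 deaminase libraries 1360 members were called, 20.5%, against 6.63% of all sites, and in exactly 1 library 19.5% were, against 36.5%. The calls in all 22 libraries numbered 47 in 23 genes, 0.707% of members against 0.13% of all sites. Of these 47 sites 43 were coding, 32 of them missense and 10 synonymous, and 31 had G on the 3′ side. Of all members 76.4% were coding, and of those that are adenosine 48.1% had a 3′ G. The same makeup was not counted for the sites of all genes called in 22 libraries. Genes with a called member numbered between 41, in full-length ADAR2 without guide, and 84, in the ADAR1 (E1008Q) NES fusion without guide.

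The 2 subunits had similar levels. Small-subunit genes held 2346 sites in 32 genes with a median rise of 0.467 points, large-subunit genes 3755 sites in 47 genes with 0.501 points, and the P proteins of the stalk 251 sites in 3 genes with 0.405 points. The most listed sites were in RPL7L1 with 231, RPL3 with 212, RPL4 with 202, RPL13 and RPL13A with 179 each, RPL15 with 171, RPL28 with 166, RPS2 with 162, RPSA with 154 and RPS23 with 152. RPL3, a large-subunit protein that reaches towards the peptidyl transferase centre, had 64.7 listed sites per 100 coding adenosines, yet a median rise of 0.41 points and 5 sites of at least 10 points. RPS2, a protein at the entry of the mRNA channel, had the densest coding sequence with 72.0 sites per 100 adenosines.

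Per 100 adenosines of 1 whole transcript, a figure that depends on the transcript chosen, RPS2 had 60.5 sites, RPL8 58.2, RPL3 57.7 and RPL13A 55.4. The fewest were in RPS27L with 0.288, RPL22L1 with 1.31, RPL31 with 3.88, RPL14 with 3.96 and RPL36AL with 4.82. Paralogues of the usual subunit genes were sparse in coding sequence as well. RPL39L had 3.57 listed sites per 100 coding adenosines, RPS27L 5.88, RPL22L1 6.5, RPL36AL 7.41 and RPL26L1 9.52. RPL39, a large-subunit protein of the exit tunnel, had 3.39. The largest rise in any gene ranged from 1.54 points in RPL22L1 to 48.3 points in RPL10A, and 64 genes had a site of at least 10 points.

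**Figure D3:**
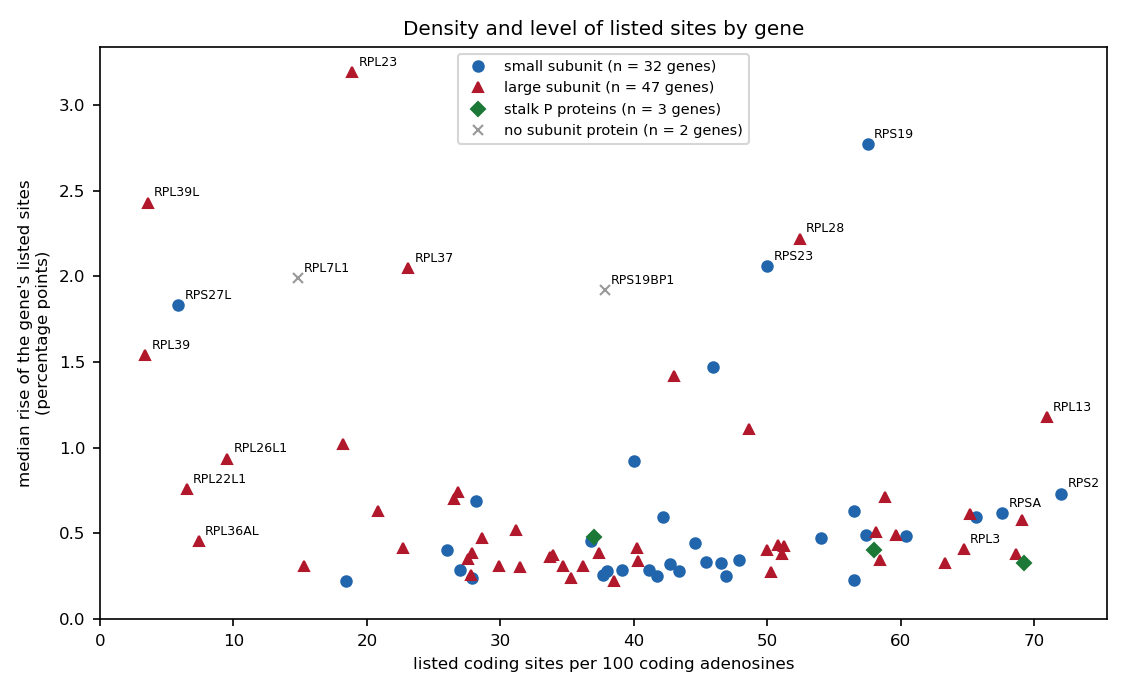
Listed coding sites per 100 coding adenosines (horizontal) and median rise of the gene's listed sites in percentage points (vertical) for the 84 genes, by subunit. Most genes lie below a median of 1 point across the whole range of density, while RPL23 (3.19), RPS19 (2.77), RPL39L (2.43) and RPL28 (2.22) lie highest.

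The highest shares stood mainly outside coding sequence. The RPL10A site of a noncoding transcript (ENSG00000198755.10, chr 6, position 35469137) ranged from 18.1% in MCP-ADAR2 DD-NES without guide to 96.1% in full-length ADAR2 (E488Q) with guide, with a median of 48.8%. Its mean rise was 48.3 ± 20.0 points (SD, 22 libraries) and it was called in all 22. The untransfected runs stood at 0.637%, 0% and 0%, so every deaminase library was above them. In the RPS23 3′ UTR (ENSG00000186468.12, chr 5, position 82275681) shares ran from 3.92% to 72.1% with a median of 50.4%, a rise of 44.5 ± 21.1 points and 19 calls. The RPS9 3′ UTR site (ENSG00000170889.13, chr 19, position 54206723) had shares from 1.56% to 70.5% with a median of 34.5%, and the untransfected runs at both sites were at 0%. The lowest library at both 3′ UTR sites was full-length ADAR2 without guide and the highest MCP-ADAR1 DD (E1008Q)-NES with guide.

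Further sites of this group were 3′ UTR positions of RPL13 (chr 16, position 89564054, 36.9 ± 15.8 points), RPL32 (chr 3, position 12835558, 36.8 ± 19.4 points) and RPL28 (chr 19, position 55390261, 35.5 ± 17.4 points). A second RPL10A site (chr 6, position 35469289) gained 36.9 ± 20.2 points. The RPL7L1 3′ UTR site at chr 6, position 42888438 was already at 23.1% to 27.7% in the untransfected runs, and its deaminase libraries stood between 45.1% and 85.2%. The highest library of GFP or guide alone stood at 39.3% there. Another RPL7L1 3′ UTR site (chr 6, position 42888592, 36.1 ± 17.7 points), a second RPL28 site (chr 19, position 55389174, 33.0 ± 22.1 points), a second RPS23 site (chr 5, position 82275157, 31.1 ± 15.4 points) and the RPS19 sites at positions 41872649 (32.0 ± 29.5 points) and 41872077 of chr 19 (31.9 ± 23.2 points) complete the 15 largest at no more than 2 sites a gene. The first RPS19 site was at 0% to 96.2%, with the highest value in full-length ADAR2 (E488Q) with guide. RPL28 position 55389174 was called in 9 of 22 deaminase libraries. Its untransfected mean was 5.27%, and it reached 22.7% in a library of GFP or guide alone.

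Among coding sites RPSA V288V (ENSG00000168028.13), a silent position near the end of the small-subunit protein that also binds laminin, had the largest rise. Its shares ran from 4.55% to 63.6% with a median of 40.9%, and the untransfected runs were at 0.324%, 0.402% and 0.281%. The rise was 37.3 ± 16.4 points and the site was called in all 22 libraries. RPS29 K54E (ENSG00000213741.10), in a zinc-binding protein of the small subunit, had shares from 0.284% to 60.4% with a median of 37.2%, a rise of 33.2 ± 18.3 points and 21 calls. The library below the rest at both was full-length ADAR2 without guide. Other coding sites called in all 22 libraries were RPL4 L133L (chr 15, position 66502634, 25.7 ± 12.8 points), RPS3A E234E (chr 4, position 151104500, 23.4 ± 15.9 points), RPS2 N235S (chr 16, position 1962502, 23.1 ± 15.7 points) and RPSA Q84R (chr 3, position 39408723, 22.0 ± 10.4 points). RPS14 K61R (chr 5, position 150446931) gained 17.9 ± 7.61 points. A further RPL10A site of a noncoding transcript, at chr 6, position 35469339, gained 36.2 ± 14.9 points and was also called in all 22.

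Near-identical copies are a known limit for these genes. A window of 51 nt around the site was found unchanged in an annotated pseudogene for 2401 of 6525 members with a full window, 36.8%. A copy with G at the site was found for 57 members, and 0 of these stood above 2% in the untransfected runs. Of 80 sites picked by the rules for naming, 14 have such an unchanged window, among them RPS27A E64G, RPS2 N235S, K145E and K246R, RPSA Q84R and G106G, RPS3A E234E, RPL4 L133L, RPLP0 E120E, RPL27A Y61C, RPS26 K34R, RPL23A E133G and the RPL9 3′ UTR site, and reads at these cannot be assigned to the gene with certainty. The RPSA V288V, RPS29 K54E and RPLP0 Y199C windows were found in no annotated pseudogene.

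Most coding sites were missense, and lysine codons were the most frequent among them. Of 5024 coding sites with a codon, 4010 were missense (79.8%), against 78.9% if each coding adenosine of the 84 transcripts were edited, and 957 were synonymous. Lysine to arginine was the most frequent change with 1026 sites, 25.6% of missense members against 20.3% in other genes and 18.7% of the missense changes that these transcripts allow. Percentages of changes in other genes rest on sites in exons of 1 gene, those of members on all missense members. Lysine to glutamate, which reverses the charge, came next with 527 sites, 13.1% against 5.03% in other genes, but the transcripts allow 18.7%. Their median rises were 0.553 points for lysine to arginine and 0.25 points for lysine to glutamate. The largest lysine to arginine rise was RPL35 K19R with 25.2 points, and the largest lysine to glutamate rise was RPS29 K54E. Serine to glycine made up 3.34%, against 9.83% in other genes, and the transcripts allow 2.2%. Missense sites of at least 10 points numbered 78 and synonymous ones 23, and the median rises were 0.353 and 0.4 points.

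Some listed sites lay in stop and start codons. Those that turn one stop into another numbered 28, with a median rise of 1.4 points and a highest of 13.0 points. A further 15 would extend the protein, with a median of 0.532 points, and 14 lay in start codons, with a median of 0.238 points. The largest rise among the sites that would extend the protein was in RPS19BP1 X137W (chr 22, position 39529493), where X is the stop, with 9.37 ± 7.55 points. RPL35 X124W (chr 9, position 124857918) had 3.11 ± 5.82 points, with a median share of 0.913% and a highest of 20.0%, and RPL8 X258W (chr 8, position 144789805) 2.3 ± 3.05 points. At the start codons RPL3 M1V (chr 22, position 39319597) gained 3.03 ± 3.77 points and RPL36 M1V (chr 19, position 5690508) 2.53 ± 3.11 points. For all 4 of the subunit genes the SD over libraries exceeded the mean rise.

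The neighbouring bases of called members leaned less to G on the 3′ side than those of other genes. In the 22 libraries 57.3% ± 5.58 of called members had a 3′ G (SD over libraries), against 65.6% ± 5.66 of called sites of other genes, lower in 22 of 22 libraries, and 28.6% of all adenosines in either set of transcripts. UAG made up 4.76% ± 0.54 of called members, against 12.1% ± 2.6 in other genes, also lower in 22 of 22, with 3.46% and 3.39% among all adenosines. A 3′ A was more frequent, with 15.2% ± 2.52 against 8.39% ± 1.49. Within the members the bases moved with the level. The 292 adenosine sites with a rise of at least 10 points had UAG in 11.3% and a 5′ G in 2.74%, while the 4084 with a rise under 1 point had UAG in 2.35% and a 5′ G in 20.3%. Median rises were 2.19 points at UAG, 0.774 points at AAG and 0.197 points at GAA. The libraries share 1 set of listed sites, so these percentages are a description without a test.

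The E-to-Q forms, known as more active deaminases, gave higher shares at many ribosomal protein sites. In the 16 MCP libraries limma (adjusted p under 0.05 over all 382978 sites, main effects of variant, localisation, enzyme and guide) called 2113 members higher with E-to-Q, 31.8% against 39.7% of all sites, and 40 lower, 0.602% against 0.72%. The higher ones were spread over 82 genes. All but 47 members were called in at least 1 deaminase library, and more of them in E-to-Q than in matching wild-type libraries, so many came onto the list through the group where they are high and the direction of these counts is no independent support. There is 1 library for each combination, so the 11 residual degrees of freedom cover interactions as well as differences between libraries. The median difference over all members was 0.264 points, against 1.57 points over all sites.

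RPLP0 Y199C, in the protein that anchors the stalk, was at 16.9% to 46.0% (median 26.7%) in the 8 E-to-Q libraries, against 1.08% to 7.68% (median 2.47%) in the 8 wild-type libraries. The groups did not overlap, and the difference was 26.1 ± 8.69 points (SD, 8 pairs; limma adjusted p = 3.97e-06). RPS2 N235S was at 24.5% to 41.9% (median 39.1%), against 4.27% to 20.9% (median 9.46%), without overlap and with a difference of 26.4 ± 4.25 points (limma adjusted p = 4.48e-06). A site in a noncoding RPS12 transcript (chr 6, position 132815184) stood at 30.9% to 52.7%, against 3.81% to 17.1%. These 3 belong to the 10 largest differences with all 8 pairs in 1 direction and at most 2 sites a gene, the rule for naming sites in each comparison. In the other 7 the ranges of the groups overlapped. The pick favours separate ranges, and overlap was not counted over all sites. These were RPL37A 3′ UTR (chr 2, position 216529336, 30.6 ± 24.7 points), RPS4X 5′ UTR (chr X, position 72277241, 29.0 ± 4.34 points), RPLP0 E120E (chr 12, position 120198959, 26.4 ± 8.88 points), RPL28 3′ UTR (chr 19, position 55389487, 26.4 ± 9.11 points), RPS9 5′ UTR (chr 19, position 54201158, 26.2 ± 11.5 points), RPLP1 noncoding exon (chr 15, position 69453723, 26.1 ± 10.4 points) and RPL32 3′ UTR (chr 3, position 12835558, 26.1 ± 12.7 points). Under the call rule on the authors' p, these 7 were called in 4, 16, 19, 12, 6, 3 and 15 of the 22 deaminase libraries, in that order. The RPLP1 site stood at 26.6% without transfection. The RPL28 and RPL32 sites lost their call in NES libraries alone, and the RPL37A site in NLS libraries alone.

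RPS27A E64G ran the other way. RPS27A codes for a fusion of ubiquitin and a small-subunit protein, and the changed glutamate belongs to ubiquitin. The site was at 0.384% to 0.862% (median 0.623%) in E-to-Q libraries, against 3.68% to 18.4% (median 6.23%) in wild-type libraries, without overlap (-6.95 ± 4.77 points; limma adjusted p = 0.000103). Its 5′ neighbour is G, and its window is also found in a pseudogene. The 40 lower members had a 5′ G in 27.5%, against 14.4% of the 2113 higher ones, and a median difference of -1.95 points. The 5′ bases were not counted over all sites called by variant. RPL8 K192R (chr 8, position 144790395) differed by -6.72 ± 6.54 points, RPL5 E129E (chr 1, position 92836252) by -4.15 ± 4.03 points and RPSA X296X, the second adenosine of the stop codon (chr 3, position 39412368), by -3.97 ± 1.87 points. The other named lower members differed by -3.86 to -2.2 points, namely RPL27A Y61C (chr 11, position 8684756), RPSA G106G (chr 3, position 39410819), RPS19 K122R (chr 19, position 41869707), RPS6 T181A (chr 9, position 19376607), RPS2 K246R (chr 16, position 1962243) and RPS26 K34R (chr 12, position 56042522). RPS26 K34R lost its call on untransformed shares (limma adjusted p = 0.0539, with 0.00799 to 0.176 over its alternatives). In NES libraries alone 7 of the 10 named lower sites lost their call, all but RPS27A E64G, RPL5 E129E and RPSA G106G, and in NLS libraries alone 9 of 10 did, all but RPS27A E64G. Leaving out MCP-ADAR1 DD-NES without guide gave 23 lower members, MCP-ADAR1 DD (E1008Q)-NLS with guide 24, and either MCP-ADAR1 DD (E1008Q)-NLS without guide or MCP-ADAR1 DD (E1008Q)-NES with guide 25.

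With NLS fusions some ribosomal protein sites had lower shares than with NES fusions, and limma called none higher. It called 0 members higher with NLS, against 0.0397% of all sites (12 at an unadjusted p under 0.05, 0 on untransformed shares and 1 with a minimum mean share), and 144 lower, 2.17% against 3.76%, in 52 genes. The median difference over members was -0.393 points, against -1.46 over all sites. Each NES fusion had more members called than the matching NLS fusion, so many members came onto the list through NES libraries. The direction of these counts is therefore no independent support. RPS23 N92S, in the small-subunit protein of the decoding centre, was at 6.23% to 18.2% (median 8.0%) in the 8 NLS libraries, against 18.1% to 26.4% (median 21.0%) in the 8 NES libraries. A single NLS library, MCP-ADAR2 DD (E488Q)-NLS with guide, reached the NES range, and the difference was -11.6 ± 3.51 points (limma adjusted p = 0.0185). An exon of ATG10 overlaps this site.

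The other named sites overlapped between the groups, with differences of -14.1 to -10.8 points. They were RPL7L1 3′ UTR (chr 6, position 42888592, -14.1 ± 6.57 points), RPS19BP1 E124E (chr 22, position 39529531, -13.8 ± 5.68 points), RPL36 E89G (chr 19, position 5691569, -11.6 ± 6.23 points), RPL24 noncoding exon (chr 3, position 101686603, -11.4 ± 7.64 points) and RPS12 noncoding exon (chr 6, position 132815091, -11.3 ± 5.68 points). RPS27A Y148C (chr 2, position 55235549), in the ribosomal part of the fusion, differed by -11.3 ± 5.94 points, RPS15A R68G (chr 16, position 18788074, where AC138811.2 overlaps) by -11.1 ± 7.23, and RPL27 5′ UTR (chr 17, position 42998663) by -10.8 ± 8.48. RPS27 R80G (chr 1, position 153992076) had a median of 29.0% with NLS and 43.8% with NES. By the authors' p the RPL24 site was called in 4 of the 22 deaminase libraries and the RPS12 site in 6, the others in at least 14. The RPS12 site stood at 11.7% without transfection. The count of lower members rested on the model and on single libraries. It was 0 on untransformed shares, where all 10 named sites lost their call, and leaving out 1 library gave between 7 (without MCP-ADAR1 DD-NES without guide) and 234 (without MCP-ADAR2 DD-NLS without guide). This count moved by over 1.5 times for 12 of 16 libraries. The 4 that moved it less were MCP-ADAR2 DD-NES without guide, MCP-ADAR2 DD (E488Q)-NES with and without guide, and MCP-ADAR2 DD (E488Q)-NLS with guide. RPS23 N92S and RPS27A Y148C kept their call in all 16 of these fits.

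Most ribosomal protein sites had lower shares with the ADAR2 domain than with the ADAR1 domain. Limma called 3925 members lower with ADAR2, 59.1% against 66.0% of all sites, in 84 genes, and 175 higher, 2.63% against 2.6%, in 67 genes. The same limit holds, since each ADAR1 fusion had more members called than the matching ADAR2 fusion and many members came onto the list through ADAR1 libraries. The median difference over members was -0.519 points, against -2.68 points over all sites. Of the higher members 23.5% had a 5′ G and 1.18% were UAG, against 12.2% and 5.59% of the lower ones. Among listed adenosines 5′ G and UAG made up 16.2% and 4.44% for members, and 12.0% and 8.73% for other genes. The bases were not counted over all sites called by enzyme, so these percentages are not a trait shown to be particular to members.

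RPS4X K211K, a silent site in the X-linked small-subunit gene, was at 1.25% to 6.72% (median 3.59%) with ADAR2, against 31.9% to 53.7% (median 44.6%) with ADAR1. The groups did not overlap, and the difference was -40.1 ± 7.4 points (limma adjusted p = 2.83e-07). RPS23 K28E (chr 5, position 82277775) was at 0.576% to 16.5% (median 7.38%), against 25.9% to 59.5% (median 43.3%), also apart (-35.8 ± 7.95 points; limma adjusted p = 3.85e-07). An RPL12 site of a noncoding transcript (chr 9, position 127451121) had the largest mean difference, 0% to 17.6% against 32.7% to 73.0% (-53.3 ± 12.7 points). A nearby site at position 127451143 differed by -33.8 ± 10.0 points. The remaining 6 were 3′ UTR sites of RPS19 (chr 19, positions 41872077 and 41872303), RPS23 (chr 5, position 82275633), RPL28 (chr 19, position 55391478) and RPL35A (chr 3, position 197956053) and a 5′ UTR site of RPL7 (chr 8, position 73293884), with differences of -37.5 to -33.6 points. Among these 10 sites the groups touched only at RPS19 position 41872077, at 30.0%. The 10 were picked for large differences with all pairs in 1 direction, so separate ranges are no independent result. Overlap was not counted over all sites. By the authors' p the RPL7 site was called in 4 of the 22 deaminase libraries and the RPL35A site in 7, the others in 9 to 19.

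RPS2 K145E stood out in the opposite direction, at 22.0% to 51.9% (median 37.7%) with ADAR2, against 2.29% to 10.6% (median 4.5%) with ADAR1. The groups did not overlap (31.3 ± 7.02 points; limma adjusted p = 6.42e-07). The first adenosine of the RPSA stop codon (chr 3, position 39412367) was at 7.43% to 25.5% (median 9.82%), against 1.04% to 4.83% (median 2.58%), also without overlap (10.1 ± 5.78 points; limma adjusted p = 6e-05). Both changes to this codon keep a stop. RPL32 R121G (chr 3, position 12836141) was at 0.871% to 24.6%, against 0.207% to 1.04%, a difference of 11.8 ± 9.86 points. The neighbouring RPS19BP1 sites E124G (chr 22, position 39529532, 16.4 ± 13.3 points) and E124E (10.9 ± 7.15 points), RPSA Q84R (13.0 ± 5.42 points), RPS3A E234E (12.4 ± 6.11 points), RPL23A E133G (chr 17, position 28723582, 11.7 ± 6.49 points) and RPL37 3′ UTR (chr 5, position 40825558, 9.92 ± 5.15 points) were higher with overlapping ranges. RPL32 R121G and RPS19BP1 E124G lost their call in NLS libraries alone, and RPS19BP1 E124E in NES libraries alone. At an RPL3 noncoding exon (chr 22, position 39317459) the difference was 27.1 ± 13.9 points, and the untransfected mean there was 43.0%. By the authors' p this site was called in 1 of the 22 deaminase libraries and the RPL37 site in 5, the other named ones in 14 to 22.

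**Figure D4:**
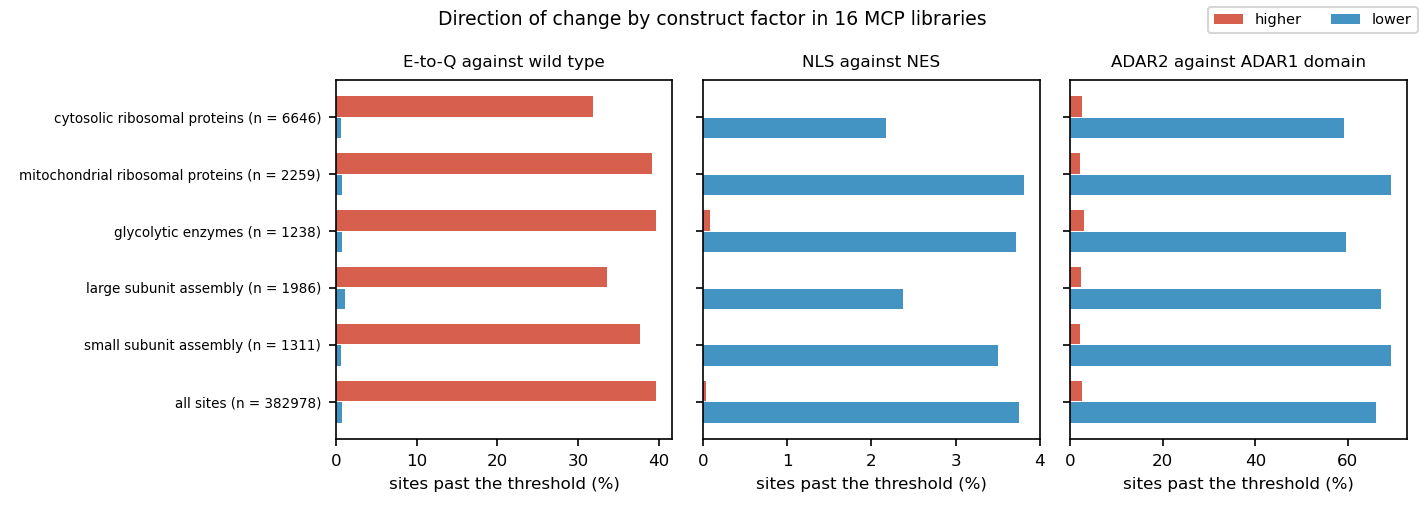
Percentage of sites that limma called higher (red) or lower (blue) for each construct factor in the 16 MCP libraries, for cytosolic ribosomal proteins, comparison lists and all listed sites. Cytosolic ribosomal protein sites were called higher with E-to-Q in 31.8% and lower with ADAR2 in 59.1%, below the 39.7% and 66.0% of all sites. None was called higher with NLS, against 0.0397% of all sites.

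The MS2 adRNA guide changed no member past the threshold. Limma called 0 members higher and 0 lower with guide, against 0.000783% and 0.0% of all sites, and at an unadjusted p under 0.05 there were 70 members, 57 higher and 13 lower, 1.05% against 3.05% of all sites. The median difference over members was 0.0323 points, and single sites differed on average by between -12.4 and 13.5 points. The lowest adjusted limma p of any member was 1.0. The smallest unadjusted p belonged to RPL7L1 X256W (chr 6, position 42886463), a stop codon site that differed by -0.456 ± 0.289 points, with RPL28 3′ UTR (chr 19, position 55389070, 2.96 ± 3.11 points) and RPL23 S138G (chr 17, position 38850143, 8.03 ± 10.4 points) next.

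Some effects differed between constructs by limma's interaction terms. On the arcsine scale the E-to-Q minus wild-type difference was lower with ADAR2 than with ADAR1 at 592 members, 8.91% against 7.08% of all sites, and the reverse held for 44, 0.662% against 0.638%. At RPL9 3′ UTR (chr 4, position 39454197) the ADAR2 libraries were at 0.559% to 2.61% with E-to-Q and 0% to 0.912% as wild type, and the ADAR1 libraries at 28.8% to 51.0% with E-to-Q and 1.97% to 8.42% as wild type (adjusted p = 0.00217, limma). The NLS minus NES difference was higher with ADAR2 than with ADAR1 at 132 members, 1.99% against 5.8%, and the reverse held for 3, 0.0451% against 0.0535%. The interaction of variant and localisation was called at 1 member, 0.015% against 0.00183%, and at 0 in the other direction, against 0.000783% (74 and 118 members at an unadjusted p under 0.05). These counts rested on single libraries and on the scale. Leaving out 1 library gave 356 to 555 and 20 to 30 members for enzyme and variant, and 7 (without MCP-ADAR2 DD-NES without guide) to 122 and 0 to 3 for enzyme and localisation, and untransformed shares gave 1425 and 191, and 1148 and 12. The 592 moved by over 1.5 times without MCP-ADAR1 DD-NES with guide, MCP-ADAR1 DD (E1008Q)-NES without guide, or any MCP-ADAR2 fusion but the NLS ones with guide. The 44 did so without any library but MCP-ADAR1 DD (E1008Q)-NLS without guide, and the 132 without any but MCP-ADAR1 DD (E1008Q)-NES and -NLS with guide.

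RPL27 K22R, in a large-subunit protein, was higher with NLS in the ADAR1 fusions. With NLS the E-to-Q libraries of ADAR1 stood at 33.5% and 25.1% and the wild-type ones at 4.19% and 3.77%, while with NES the E-to-Q libraries stood at 0.943% and 0.975% and the wild-type ones at 0.372% and 0.412%, with guide given before without. The ADAR2 libraries were at 0.0459% to 0.728% with NLS and 0.0286% to 0.234% with NES. In the fit of main effects the site was not called by localisation, and its interaction of enzyme and localisation had a limma adjusted p of 0.0358, a call lost when any of 11 single libraries was left out (adjusted p between 0.0228 and 0.0723 over its alternatives).

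**Figure D5:**
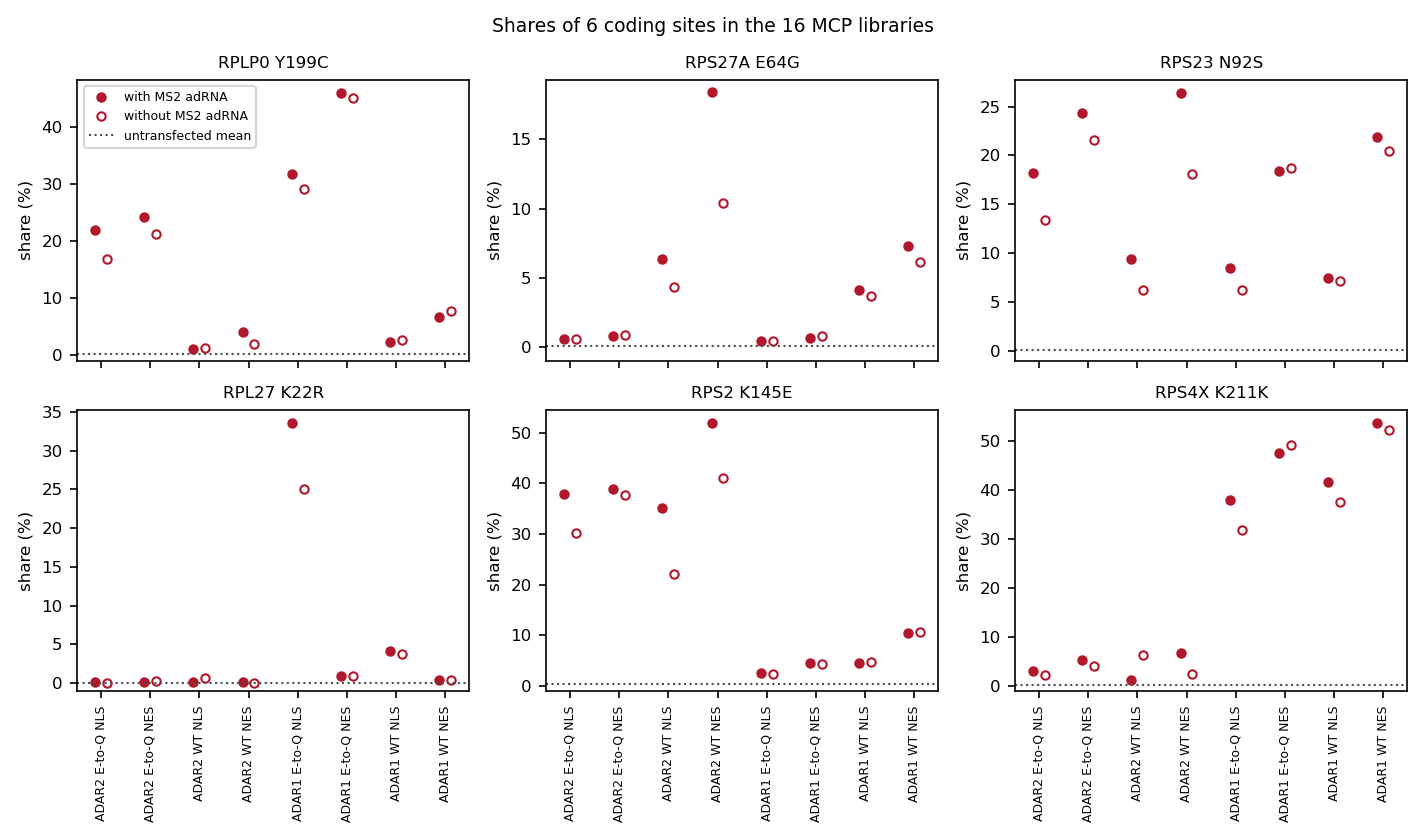
Shares in percent of 6 coding sites in the 16 MCP libraries, grouped by enzyme, variant and localisation signal, with MS2 adRNA (filled) and without (open); the dotted line is the untransfected mean. RPLP0 Y199C is higher and RPS27A E64G lower with E-to-Q, RPS23 N92S is lower with NLS, RPL27 K22R is highest in ADAR1 E-to-Q NLS fusions at 33.5% and 25.1%, RPS2 K145E is higher and RPS4X K211K lower with ADAR2.

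Full-length ADAR2 and the Cas13b fusion have 1 library for each condition, so their values stand side by side without a test. With the GluR2 adRNA and without it, ADAR2 reached 95.3% and 94.1% at RPS19 3′ UTR position 41871516, 96.1% and 90.7% at position 41871556, and 90.7% and 91.1% at position 41871534 of chr 19. These sites stood at 33.2%, 46.0% and 21.8% without transfection. ADAR2 (E488Q) reached 100.0% with guide and 92.9% without at an RPL37A 3′ UTR site (chr 2, position 216501867), which was at 31.5% in the untransfected runs. The highest MCP library stood at 60.7% for the first RPS19 site and at 56.2% for the RPL37A site, below these full-length values. Among the top 5 of the Cas13b fusion, RPL5 noncoding exon (chr 1, position 92837636) was at 83.3% with gRNA and 83.3% without, and at 82.8% untransfected.

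Between guide states ADAR2 differed most at RPL27A 5′ UTR (chr 11, position 8682920), with 40.7% with guide and 0% without. Its other 4 were RPL28 3′ UTR sites of chr 19 in both directions, with 61.1% with guide and 32.1% without at position 55389175 and a difference of 27.8 points at 55389174, but 58.8% and 83.7% at 55389285 and a difference of -24.4 points at 55389275. ADAR2 (E488Q) differed most at the RPS23 3′ UTR site shown above, with 66.7% with guide and 12.0% without. Next came the RPL32 3′ UTR site at position 12835558, which was 49.3 points higher with guide. At RPL37A 3′ UTR (chr 2, position 216501721) it had 54.3% with guide and 5.88% without, at RPL14 3′ UTR (chr 3, position 40466398) 85.7% and 38.9%, and at RPL27A 3′ UTR (chr 11, position 8687295) 46.2% and 0%. All 5 sites of ADAR2 (E488Q) were higher with guide, as was the mean share over all listed sites, 8.03% against 2.78% without. In the Cas13b fusion the 5 largest differences were all lower with gRNA, with 4.76% with gRNA against 42.9% without at RPL14 3′ UTR (chr 3, position 40464894) and 5.17% with gRNA against 30.9% without at RPL14 5′ UTR (chr 3, position 40457430). Over all listed sites this fusion called 12.9% with gRNA and 29.5% without. Among the 5 were RPL8 noncoding exon sites (chr 8, positions 144791770 and 144791771) with untransfected means of 81.1% and 75.2%, called in neither library. With gRNA they stood below these means, at 61.8% and 69.2%.

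Other gene lists place these values. Mitochondrial ribosomal proteins, which serve the ribosome of that organelle, had 2259 sites in 77 genes with a median rise of 1.7 points, and a median share at called sites of 8.27% over libraries. Glycolytic enzymes had 1238 sites in 16 genes with 0.814 points and 2.87%, nearer to the 0.535 points and 1.92% of cytosolic ribosomal proteins. Ribosome-associated and nascent chain factors had 0.659 points and 2.4% over 781 sites, and box C/D and H/ACA and nucleolar proteins 0.686 points and 3.8% over 801 sites. Small and large subunit assembly factors had 2.42 points with 12.3% and 1.87 points with 8.95%. The median percentage of sites called over libraries was 22.9% for members, against 9.58% of all sites. It was 24.4% for 2 ribosomal protein genes outside the symbol rule, 19.4% for glycolytic enzymes and 16.6% for ribosome-associated factors. Mitochondrial ribosomal proteins had 8.76%, box C/D and H/ACA and nucleolar proteins 8.93%, and small and large subunit assembly factors 5.84% and 7.5%. The lists differ in size and composition, and no test was made between them. By variant, limma called 39.2% of mitochondrial and 39.7% of glycolytic sites higher with E-to-Q, and by enzyme 69.3% and 59.5% lower with ADAR2.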

How the data were processed

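Poly(A) RNA sequencing of transfected HEK 293T cells gave the 2 tables used here. The submitters' processing notes name the GRCh38.p12 build, STAR 2.6.0c, SAMtools and bcl2fastq 2.18.0.12. The authors deposited for each site and library the share of reads with G as a fraction between 0 and 1, and an adjusted p-value for a change. The authors' p-values rest on a reference and a test not given in the sources used here. Untransfected run 1 is not analysed here, and 1 column without a sample name was not used. The untransfected mean is taken over 3 sequencing runs of 1 library, which are technical repeats. The files give no read depth, so no interval or floor is given.

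Sites were placed on GENCODE 29 exons in Python 3.11.15 (numpy 2.4.6, pandas 2.3.3, matplotlib 3.10.9). The transcript of a site was chosen by type (protein coding first), APPRIS and basic tags, longest coding sequence, support level and name. The arcsine of the square root of the share was fitted with limma 3.58.1 in R 4.3.3, with an intensity trend, over all 382978 sites and the 16 MCP libraries, with enzyme, variant, localisation and guide as terms (11 residual degrees of freedom, or 8 with the 3 interactions), and Benjamini-Hochberg adjusted p-values over all sites were read at 0.05. The script was checked on simulated data. Nothing in the labels pairs replicates or gives separate cultures, so p-values measure the spread between constructs. Named sites were the 15 largest mean rises and the 10 largest among those called in all 22 libraries, the 10 largest differences in each direction past the limma threshold with 8 of 8 pairs alike, the 5 largest coefficients of each interaction, the 5 highest and 5 most different sites of the full-length and Cas13b constructs, and the 5 largest stop or start codon rises, with at most 2 a gene for the rises and differences. Members, gene lists and rules were chosen with earlier results of these data known. Alternatives were an untransformed share, log2 of the share plus 0.01, no intensity trend, a mean share of at least 0.01, a share of at least 0.05 above untransfected, an added interaction, single localisations and each library left out. A few genes and sites that these rules pick are not reported here.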

Additional observations from a re-analysis of the deposited data

Results flagged for a closer look

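Effects that differed between constructs by limma's interaction terms were tested on the arcsine scale, and each value below is the interaction coefficient. For enzyme by variant it was -0.528 at RPL14 5′ UTR position 40457430, 0.514 at RPL27A 5′ UTR position 8683172, -0.419 at RPL32 3′ UTR position 12834519, -0.394 at RPL9 3′ UTR position 39454197 and -0.389 at RPL15 5′ UTR position 23916795. At the RPL32 site, which overlaps CAND2, and the RPL15 site, which overlaps NKIRAS1, the strand of the ribosomal protein gene reads T, so the adenosine lies on the other strand. For enzyme by localisation the coefficient was 0.493 at RPS15A 3′ UTR position 18781507, 0.317 at RPS9 3′ UTR position 54206723, -0.296 at RPL27 K22R, 0.294 at RPL32 3′ UTR position 12835740 and 0.279 at RPS2 position 1962495, where the RPS2 strand also reads T. For variant by localisation the called member was RPL27A 3′ UTR position 8686505, with 0.123. It stood at 1.19% to 1.89% in the wild-type NES libraries and at 0% in all other MCP libraries. By the authors' p it was called in 1 deaminase library, as were RPL27A position 8683172 and RPL32 position 12835740.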

How the results depend on the processing

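Of the sites named by rule, 334 combinations of site and setting kept their call, 39 lost it and 0 reversed, and with 1 library left out 893 kept and 83 lost it. Requiring a share 0.05 above untransfected lowered the members called in any deaminase library to 2484, against 6599, and the median over libraries to 385, against 1520. Leaving out 1 of the 3 untransfected runs gave 6599 to 6600 and 1520, and no deaminase library was left out for these 2 counts. By variant, the 2113 higher members became 1389 with a mean share of at least 0.01, 567 in NES and 592 in NLS libraries alone (1738 to 2276 with 1 library left out), and the 40 lower ones 26 untransformed, 26 with the minimum share, 6 in NES and 2 in NLS alone (23 to 44). By localisation, higher members were 1 with the minimum share and 1 with the enzyme by variant interaction (0 to 1), and the 144 lower ones 0 untransformed, 328 without trend and 331 with that interaction (7 to 234). By enzyme, the 175 higher members became 115 with the minimum share, 109 in NES and 30 in NLS alone (146 to 185), and the 3925 lower ones 1872 and 804 with the minimum share and in NLS alone (3553 to 3959). The guide gave 0 throughout these leave-one-out fits. Of the interactions, enzyme by variant had 191 higher members untransformed, 68 on the log2 scale and 22 with the minimum share (20 to 30), and 1425 lower ones untransformed (356 to 555). Enzyme by localisation had 1148 higher members untransformed, 244 on the log2 scale, 234 without trend and 70 with the minimum share (7 to 122), and 12 lower ones untransformed (0 to 3). Variant by localisation had 0 in each of the untransformed, no-trend and minimum-share fits (0 to 1 in either direction). The cause of these moves was not tested. The single-localisation fits used fewer libraries, and the fits with a minimum share used fewer sites. The percentages of called members with 3′ G (57.3%), UAG (4.76%), coding position (81.9%) and missense change (64.7%) moved by less than the spread over libraries. No paired analysis was possible because the conditions have 1 library each and share fewer than 2 replicate numbers, so that no replicate block could be fitted. The pairs in the text match constructs that differ in 1 feature. Depth is unknown, so low shares cannot be given a counting error.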
